A study of Homo sapiens with 6 samples.

Results

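The SALL (spalt-like) transcription factors are the 4 genes SALL1, SALL2, SALL3 and SALL4, taken by gene name from the 58735 genes of the deposited expression table. The family was selected on the measured levels of SALL3, which was higher in one of the 2 lines compared, so the values of SALL3 between these lines are a description and carry no p-value. The libraries came from HEK293 cells, a human embryonic kidney line. The cells stably expressed tensin 2 (TNS2, a focal adhesion protein) with the tyrosine of its Y483 site replaced either by glutamate (Y483E, 3 libraries), which resembles a phosphorylated residue, or by phenylalanine (Y483F, 3 libraries), which cannot be phosphorylated. All 6 libraries therefore carry a mutant tensin 2 construct. The labels do not say whether each line was 1 clone, so an effect of the residue and a difference between lines cannot be told apart. The replicates are called biological without separate cultures being stated, so p-values measure the spread between these libraries, which may be technical.

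SALL proteins are zinc finger factors of the C2H2 class that carry pairs of zinc fingers along the protein. A short motif at the N-terminus of SALL1, SALL3 and SALL4 recruits the NuRD complex, which combines histone deacetylation with chromatin remodelling. SALL1 is required for the outgrowth of the ureteric bud in the developing kidney and acts in nephron progenitors, and its mutation causes Townes-Brocks syndrome. SALL4 belongs to the transcription network of embryonic stem cells and is usually silent in adult tissue, SALL2 is a regulator of growth arrest and apoptosis, and SALL3 acts in limb, cranial and neural development.

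Reads in genes summed to between 17204498 and 23284592 per library. The 8 transcripts used as HEK293 markers (PAX2, LHX1, IRS4, NEFL, NEFM, KRT8, KRT18 and VIM) all had reads. Their summed level was 328 to 352 FPKM in the Y483E libraries and 330 to 341 FPKM in the Y483F libraries. The levels of single markers were unequal, with a mean over the 6 libraries of 159 FPKM for IRS4. PAX2 at 0.984 FPKM, LHX1 at 0.977 FPKM and NEFM at 0.238 FPKM were low. Of 8 markers of blood, endothelium, fibroblast, muscle and liver cells, PTPRC, CD3E and MYH1 had 0 reads. The highest was COL1A1 at a mean of 0.667 FPKM, which is above the mean of NEFM. The FPKM of TNS2 was 0.753, 1.04 and 1.05 in Y483E, against 1.07, 1.16 and 1.16 in Y483F, and these values do not separate construct from endogenous transcript. A principal component analysis gave Y483E scores of -23.5, -4.28 and -38.0 on its leading axis (26.8% of variance), and the score of -24.1 for Y483F replicate 1 fell inside that range, unlike those of the other two Y483F libraries. On this axis Y483F replicate 1 stands apart from its group, and the fold changes of SALL1, SALL2 and SALL3 are also given without it.

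The loci lie on 4 chromosomes, and their spans in the authors' table are those of GENCODE 29 gene models on GRCh38. SALL1 (ENSG00000103449) is at chr16:51135975-51151367 on the minus strand, SALL2 (ENSG00000165821) at chr14:21521081-21537216 on the minus strand, SALL3 (ENSG00000256463) at chr18:78980275-79002677 on the plus strand, and SALL4 (ENSG00000101115) at chr20:51782331-51802520 on the minus strand. The lengths behind the FPKM values (fragments scaled by gene length and library size) are the summed exons of each gene, from 5382 bases for SALL2 to 7397 bases for SALL3.

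RefSeq promoter windows, 250 bases before to 50 after the annotated start on GRCh38.p14, matched 2 of the 4 members, SALL2 and SALL3. Both windows found are shown. SALL2 is the member with the highest FPKM. SALL3 has the largest fold change among the 3 members that passed the filter on low values. The base composition of the 2 windows is unlike. Capitals mark each CG dinucleotide, which reads the same on both strands.
SALL3 (chr18:78979568-78979867, plus strand): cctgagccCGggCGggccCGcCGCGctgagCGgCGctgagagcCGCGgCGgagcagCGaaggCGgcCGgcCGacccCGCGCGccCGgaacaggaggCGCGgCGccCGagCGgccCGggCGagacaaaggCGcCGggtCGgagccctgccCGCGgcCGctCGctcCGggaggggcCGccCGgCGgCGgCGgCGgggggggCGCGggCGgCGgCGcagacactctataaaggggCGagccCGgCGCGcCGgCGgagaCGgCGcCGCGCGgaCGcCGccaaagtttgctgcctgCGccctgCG
SALL2 (chr14:21537072-21537371, minus strand): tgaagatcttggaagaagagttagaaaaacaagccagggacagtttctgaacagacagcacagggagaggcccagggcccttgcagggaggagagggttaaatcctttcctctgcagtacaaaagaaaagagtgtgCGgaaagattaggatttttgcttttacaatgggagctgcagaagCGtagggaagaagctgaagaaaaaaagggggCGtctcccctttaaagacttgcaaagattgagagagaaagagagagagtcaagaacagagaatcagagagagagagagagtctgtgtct
The SALL3 window held 59 CG dinucleotides at 83.0% G and C, a CG number reached by 0.122% of the 35116 RefSeq promoter windows of this length. The SALL2 window held 3 at 46.0% G and C, a number reached by 81.8% of them. The RefSeq start of SALL3 lies before the start in the authors' table, and that of SALL2 lies inside the authors' span. DNA methylation was not measured in these libraries.

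The 4 genes spanned a wide range of levels, and their order was the same in every library. SALL2 was the most abundant, at a mean over the 6 libraries of 13.6 FPKM, rank 27 of the 630 genes that the authors' table assigns to the zf-C2H2 factor family. SALL1 had a mean of 6.55 FPKM, rank 95 of 630, SALL3 a mean of 0.748 FPKM, rank 469, and SALL4 a mean of 0.0220 FPKM, rank 570. The ranges of neighbours in this order did not overlap, with 12.3 to 15.5 FPKM for SALL2, 6.29 to 6.96 FPKM for SALL1, 0.451 to 1.02 FPKM for SALL3 and at most 0.0482 FPKM for SALL4. SALL2 lay at 1.95 to 2.22 times the level of SALL1 within each library. Of the summed FPKM of the 4 genes, SALL2 made up 65.0 ± 0.994% in Y483E and 64.8 ± 0.437% in Y483F (SD, n = 3 each), and SALL1 made up 30.3 ± 0.652% in Y483E and 32.6 ± 0.456% in Y483F.

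**Figure D1:**
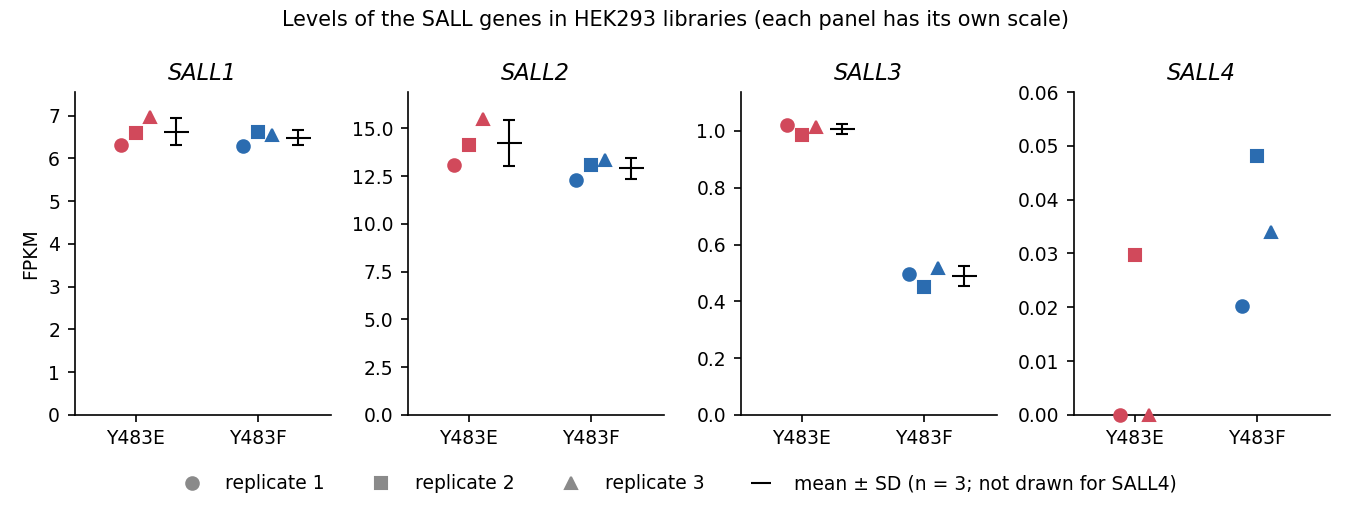
Level of each SALL gene in FPKM (y axis, starting at 0, with its own scale in each panel) in the 3 Y483E and 3 Y483F libraries, 1 point per library, with the mean ± SD beside the points except for SALL4. The SALL3 points of Y483E, between 0.986 and 1.02, all lie above those of Y483F, between 0.451 and 0.518, while the points of the groups overlap for SALL1, SALL2 and SALL4.

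SALL3, which was reported to bind the DNA methyltransferase DNMT3A and to act in the development of limbs and cranial nerves, is the member whose difference chose the family. Its level was 1.02, 0.986 and 1.01 FPKM in Y483E replicates 1, 2 and 3, against 0.497, 0.451 and 0.518 FPKM in Y483F replicates 1, 2 and 3. All 3 Y483E libraries were above all 3 Y483F libraries, an arrangement found in 7.58% of the 20502 genes tested. Y483F replicate 1, which stands apart from its group on the leading principal component, had a SALL3 level between those of the other Y483F libraries. The lowest Y483E library was 1.90 times the highest Y483F library. The means were 1.01 ± 0.0182 FPKM in Y483E and 0.489 ± 0.0345 FPKM in Y483F (SD, n = 3 each), a ratio of 2.06.

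The reads behind these levels were few, and the difference is as large between same-numbered libraries. SALL3 had 135, 170 and 138 reads in Y483E and 63, 60 and 78 reads in Y483F. Pooled over each group and scaled by the library totals behind the FPKM values, the ratio was 2.05. The log2 ratio of Y483E over Y483F was 1.04 between the replicates 1, 1.13 between the replicates 2 and 0.97 between the replicates 3. On the log2(FPKM + 0.1) scale of the limma fit, where the pseudocount shrinks a difference at this level, it was 0.91 ± 0.15 (SE), and 0.92 without Y483F replicate 1. The authors' deposited table, which lists 1652 genes, holds SALL3 as its 1 SALL gene, with a log2 fold change of 1.04. SALL3 made up 4.62 ± 0.349% of the summed FPKM of the 4 members in Y483E and 2.46 ± 0.199% in Y483F (SD, n = 3 each), and SALL1 was at 6.58 ± 0.350 times its level in Y483E and at 13.3 ± 1.18 times its level in Y483F.

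**Figure D2:**
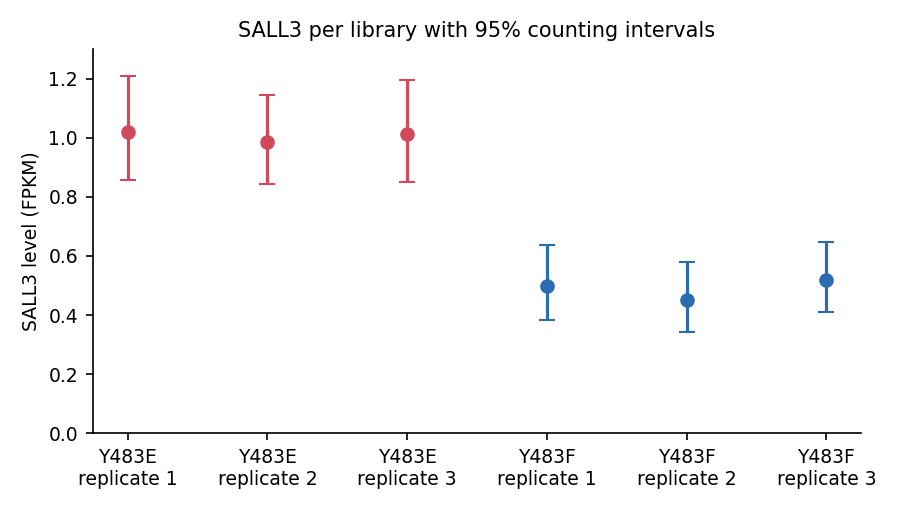
SALL3 level in FPKM (y axis, starting at 0) in each of the 6 libraries, Y483E at left and Y483F at right, with exact Poisson 95% intervals from the reads, which cover counting error only. The Y483E levels are 0.986 to 1.02 FPKM and the Y483F levels 0.451 to 0.518 FPKM. SALL3 was selected on this difference, so the intervals are a description and no test of it.

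Of the 20502 genes in the same fit, 405 had a larger log2 fold change than SALL3, and 95% of all lay below 0.49. Of the 13610 protein-coding genes among them, 24 had a larger one, and 95% lay below 0.26. Because the family was selected on this rise, its place among other genes is a description. Among the 538 tested zf-C2H2 genes 1 gene had a larger one, the zinc finger gene ZNF257 at 1.25 ± 0.31 (SE), with 0.612, 0.409 and 0.388 FPKM in Y483E and 0.209, 0.0884 and 0.127 FPKM in Y483F. Like SALL3 it is a gene of low level, and its groups did not overlap.

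SALL2, which was described as an activator of the cell cycle inhibitor CDKN1A and of proapoptotic genes, had levels of 13.1, 14.1 and 15.5 FPKM in Y483E replicates 1, 2 and 3, against 12.3, 13.1 and 13.3 FPKM in Y483F replicates 1, 2 and 3. The groups overlapped, since Y483E replicate 1 lay below Y483F replicates 2 and 3, although each Y483E library was above the Y483F library of its number. SALL2 averaged 14.2 ± 1.21 FPKM in Y483E and 12.9 ± 0.538 FPKM in Y483F (SD, n = 3 each). The log2 fold change was 0.14 ± 0.071 (SE), with a 95% interval of -0.033 to 0.31 and a Benjamini-Hochberg adjusted p of 0.558 in limma over all genes tested. The exact two-sided permutation p was 0.3, where 0.1 is the smallest that 3 libraries against 3 allow. The difference did not pass an adjusted p of 0.05, and the limma interval does not separate no change from a rise of up to 1.24-fold. In the libraries numbered 4 and 5 alone (replicates 2 and 3) edgeR gave 0.16 ± 0.053 (adjusted p 0.0591), and without Y483F replicate 1 limma gave 0.10 ± 0.076.

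SALL1, the kidney development member, measured 6.32, 6.58 and 6.96 FPKM in Y483E, against 6.29, 6.62 and 6.55 FPKM in Y483F. Every level lay within 6.29 to 6.96 FPKM and the groups overlapped. The means were 6.62 ± 0.320 FPKM in Y483E and 6.49 ± 0.172 FPKM in Y483F (SD, n = 3 each). The log2 fold change was 0.03 ± 0.059 (SE), with a 95% interval of -0.11 to 0.17 and a limma adjusted p of 0.904, and the exact two-sided permutation p was 0.6. Its sign turned to -0.0071 without Y483E replicate 3, and without Y483F replicate 1 the value was 0.0075. Between 610 and 869 reads per library supported these levels.

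SALL4, the stem cell member, was at or near 0. It had 0, 4 and 0 reads in Y483E replicates 1, 2 and 3 and 2, 5 and 4 reads in Y483F replicates 1, 2 and 3. These are levels of 0, 0.0297 and 0 FPKM in Y483E and of 0.0202, 0.0482 and 0.0341 FPKM in Y483F. A count of 0 allows up to 3 reads, which is 0.0291 FPKM in Y483E replicate 1 and 0.0282 FPKM in Y483E replicate 3, so a difference between the lines was not detectable at this depth. The ratio of the pooled reads, 4 in Y483E and 11 in Y483F, was 0.338 with an exact 95% interval of 0.0786 to 1.14. SALL4 did not pass the filter of a mean of 0.1 FPKM, and the other 3 members did. The exact two-sided permutation p was 0.2.

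In limma 0 of the 20502 genes tested passed an adjusted p of 0.05 (0.0%), with 2037 at an unadjusted p under 0.05. On reads recovered from the FPKM values edgeR called 7 of 15992 genes (0.0438%), 0.0125% higher and 0.0313% lower, and DESeq2 called 126 of 31210 (0.404%). Neither tool called SALL1 or SALL2. SALL4 was below the read filter of edgeR, received no adjusted p from DESeq2, and was not called without a filter in limma (adjusted p 0.757) or edgeR (adjusted p 0.722).

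Reads that could be shared with other annotated genes were few. The antisense gene AC009166.1 and the long noncoding gene AC087564.1 overlap SALL1 on the opposite strand, with 40 and 44 reads over all 6 libraries against 4273 reads at SALL1. AL161747.2, antisense to SALL2, had 0 reads. No gene of the table overlaps SALL3 or SALL4. Of 6 SALL pseudogenes, SALL4P7 had 1 read, in Y483E replicate 1, and the others had 0. The protocol text describes both stranded and unstranded preparation without saying which was used, so reads of a gene and its antisense partner cannot be told apart.

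The chromosomal surroundings of SALL3 moved the same way as SALL3 but by much less. Within 2 Mb of SALL3 lie 13 other protein-coding genes, of which 12 were tested. Of these 11 were higher and 1 was lower in Y483E, at a median log2 fold change of 0.15, against 0.01 over all protein-coding genes tested. Their highest value was 0.29 ± 0.054 (SE), at PQLC1 (a lysosomal PQ-loop protein), with 9.05, 9.49 and 9.63 FPKM in Y483E and 7.60, 7.39 and 7.97 FPKM in Y483F. In limma 0 of the 12 passed the threshold, as for all genes. Unadjusted p-values under 0.05 were found for 4 of them, and edgeR called 0 of 11. With the libraries numbered 4 and 5 alone, 3 of 11 were called higher by edgeR, against 67 of 190 on chromosome 18 and 7.07% of all genes. In 4 of the 12, TXNL4A, ADNP2, PQLC1 and CTDP1, every Y483E library lay above every Y483F library, against 74 of the 192 other tested protein-coding genes of chromosome 18 and 7.58% of all genes tested. The nearest expressed gene on the side of higher coordinates was ATP9B, a putative phospholipid flippase, at 1.18 ± 0.110 FPKM in Y483E and 0.994 ± 0.0759 FPKM in Y483F. On the side of lower coordinates it was MBP, which encodes myelin basic protein and lies 1846592 bases away, at 0.947 ± 0.0641 FPKM in Y483E and 0.867 ± 0.0381 FPKM in Y483F. Along chromosome 18 as a whole 170 of 192 other tested protein-coding genes were higher in Y483E, at a median of 0.14, close to that of the neighbours, and with no value above 0.66. SALL3 at 0.91 lay above all of these on the same log2 scale, and its difference relative to that of its chromosome was not tested.

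**Figure D3:**
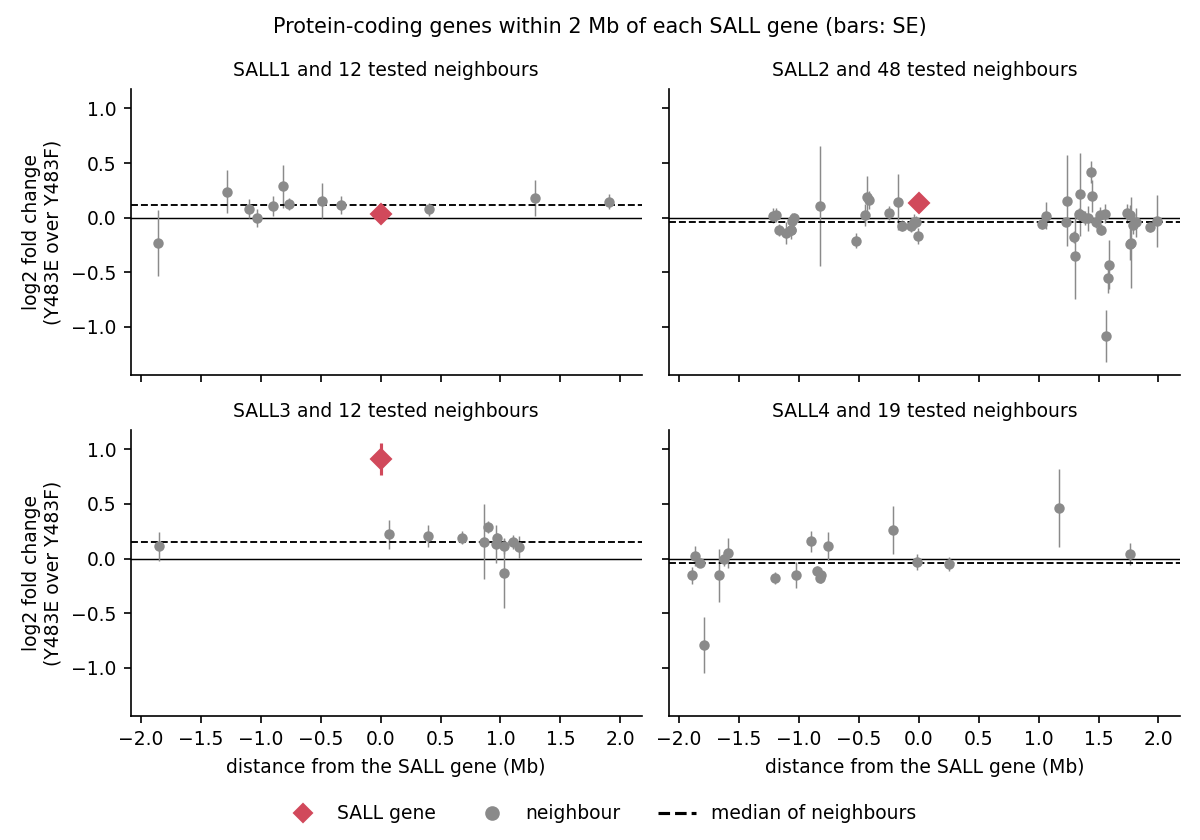
Log2 fold change of Y483E over Y483F with its SE (y axis) for protein-coding genes within 2 Mb of each SALL gene, by distance from the gene in Mb (x axis), with the SALL gene as a diamond at 0 and the median of the neighbours dashed. SALL3 at 0.91 stands above its 12 tested neighbours, whose median is 0.15, and SALL4 has no diamond because it did not pass the filter.

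Near SALL1 10 of 12 tested genes were higher in Y483E, at a median of 0.12, against -0.01 for the 633 other tested protein-coding genes of chromosome 16 (301 higher and 332 lower). BRD7 and CHD9 were the 2 of these 12 with every Y483E library above every Y483F library, against 72 of the 633 on the chromosome and 7.58% of all genes tested. The nearest, CYLD, a deubiquitinase, was at 3.19 ± 0.185 FPKM in Y483E and 2.95 ± 0.151 FPKM in Y483F. On the other side HNRNPA1P48 was at 21.8 ± 1.01 FPKM in Y483E and 20.7 ± 1.16 FPKM in Y483F, a value that may hold reads of HNRNPA1. Near SALL2 19 of 48 were higher and 29 lower, at a median of -0.04, and SALL2 at 0.14 lay on the opposite side of 0. The 451 other tested protein-coding genes of chromosome 14 had a median of 0.00034 (226 higher and 225 lower). Every Y483E library lay below every Y483F library for 8 of the 48 and above for 2. These counts were 29 and 30 of the 451 on the chromosome, and 7.37% and 7.58% of all genes tested. METTL3, the nearest to SALL2 and the methyltransferase that writes N6-methyladenosine, was at 16.3 ± 0.781 FPKM in Y483E and 18.3 ± 1.51 FPKM in Y483F, and DAD1, a subunit of the oligosaccharyltransferase and the nearest on the other side, was at 137 ± 2.10 FPKM in Y483E and 142 ± 7.38 FPKM in Y483F. Near SALL4 7 of 19 were higher and 12 lower, at a median of -0.04, against -0.10 for the 371 other tested protein-coding genes of chromosome 20. The flanking genes of SALL4 were expressed while SALL4 was not, with ATP9A, a flippase, at 8.53, 8.89 and 9.59 FPKM in Y483E and 9.96, 8.72 and 8.90 FPKM in Y483F, and with the zinc finger gene ZFP64 at 8.76 ± 0.204 FPKM in Y483E and 9.07 ± 0.666 FPKM in Y483F.

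NuRD, the complex SALL proteins recruit, was expressed in full. All 15 listed subunits were tested, 9 were higher and 6 lower in Y483E, at a median log2 fold change of 0.02, and 0 of 15 passed the limma threshold. The most abundant were the histone-binding subunit RBBP7, at 72.6 ± 5.98 FPKM in Y483E and 64.6 ± 0.680 FPKM in Y483F, and the deacetylase HDAC1, at 52.6 ± 1.73 FPKM in Y483E and 51.1 ± 0.345 FPKM in Y483F. Every Y483E library lay above every Y483F library for 3 of the 15, the remodelling ATPase CHD3, RBBP7 and the methyl-CpG binding MBD2, and below them for 1, the ATPase CHD5, against 7.58% and 7.37% of all genes tested. CHD3 was at 17.3, 19.4 and 19.1 FPKM in Y483E and 15.8, 15.9 and 16.2 FPKM in Y483F, with a log2 fold change of 0.22 ± 0.055 (SE) and a limma adjusted p of 0.354. MBD2 is a gene of chromosome 18, like SALL3. In the libraries numbered 4 and 5 alone, edgeR called 3 of the 15 higher (CHD3, RBBP7 and CDK2AP1) and 1 lower (MTA1), against 7.07% and 7.98% of all genes.

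The ubiquitin ligase CRL4-CRBN, which degrades SALL4 in the presence of thalidomide, had all 5 listed subunits expressed, 2 higher and 3 lower, at a median of -0.01. CRBN, the substrate receptor, was at 5.04, 4.84 and 4.68 FPKM in Y483E and 5.23, 5.25 and 5.33 FPKM in Y483F, with a limma adjusted p of 0.542. It was the 1 of 5 with every Y483E library below every Y483F library, against 7.37% of all genes tested. The adaptor DDB1 was at 33.4 ± 0.990 FPKM in Y483E and 31.2 ± 1.91 FPKM in Y483F, and RBX1, the RING subunit, at 31.7 ± 0.709 FPKM in Y483E and 31.9 ± 1.68 FPKM in Y483F. In limma 0 of the 5 passed, and in the libraries numbered 4 and 5 edgeR called DDB1 higher, against 7.07% of all genes. Of 8 DNA methylation enzymes 7 were tested, 4 higher and 3 lower, at a median of 0.01 with 0 past the threshold. UHRF1, which guides maintenance methylation, was at 81.4, 80.4 and 76.1 FPKM in Y483E and 71.4, 70.7 and 73.0 FPKM in Y483F, with no overlap and a limma adjusted p of 0.390, and DNMT1 was at 58.1 ± 0.905 FPKM in Y483E and 57.1 ± 2.92 FPKM in Y483F. The de novo enzyme DNMT3B, a gene of chromosome 20, was lower in all Y483E libraries, at 8.54 ± 0.611 FPKM in Y483E and 9.99 ± 0.480 FPKM in Y483F (limma adjusted p 0.413), and was the 1 of 7 enzymes edgeR called in the libraries numbered 4 and 5, where it called 15.0% of all genes. UHRF1 was the 1 of 7 without overlap above and DNMT3B the 1 of 7 below. Over all genes tested these shares were 7.58% and 7.37%, so 1 of 7 each way is near the background.

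Genes that act beside SALL1 in the developing kidney were partly expressed. Of 17 listed genes 15 were tested, 8 higher and 7 lower in Y483E, at a median of 0.04, and 0 passed the threshold in limma or edgeR. The most abundant were the signalling protein BMP7, at 15.6 ± 0.733 FPKM in Y483E and 16.6 ± 0.840 FPKM in Y483F, and the homeobox gene HOXA11, at 14.6 ± 0.299 FPKM in Y483E and 14.9 ± 0.652 FPKM in Y483F. The groups did not overlap for 4 of the 15, the low-level genes EYA1 and CITED1 (above in Y483E) and LHX1 and RET (below), against 7.58% above and 7.37% below over all genes tested. Limma adjusted p-values for these 4 lay between 0.503 and 0.550.

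The stem cell network of SALL4 was mostly silent along with it. Of 12 listed genes 7 were tested, 3 higher and 4 lower, at a median of -0.00098, and 0 passed the limma threshold. NANOG, TDGF1, DPPA4 and TBX5 were listed at 0 in all libraries. BMI1, a polycomb subunit reported as a target of SALL4, was at 21.2 ± 1.31 FPKM in Y483E and 21.2 ± 1.20 FPKM in Y483F, and the RNA-binding protein gene LIN28B at 18.9 ± 1.19 FPKM in Y483E and 20.1 ± 1.74 FPKM in Y483F. SOX2 was the 1 tested gene of the list without overlap, at 11.4, 11.1 and 10.9 FPKM in Y483E and 10.4, 10.6 and 10.8 FPKM in Y483F, with a limma adjusted p of 0.657. The share over all genes tested was 7.58% above and 7.37% below, so 1 of 7 is near the background.

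All 8 genes listed for reported links to SALL2 were tested, 6 higher and 2 lower in Y483E, at a median of 0.07, and 0 passed the limma threshold. The most abundant were the proapoptotic gene PMAIP1, a gene of chromosome 18, at 189 ± 7.81 FPKM in Y483E and 174 ± 9.83 FPKM in Y483F, and the cell cycle inhibitor CDKN2A, at 85.6 ± 1.40 FPKM in Y483E and 70.2 ± 0.648 FPKM in Y483F. CDKN2A (log2 fold change 0.29 ± 0.035, limma adjusted p 0.271) was the 1 of the 8 with every Y483E library above every Y483F library, and the growth regulator MYC was the 1 with every Y483E library below, at 33.5 ± 0.226 FPKM in Y483E and 38.0 ± 2.34 FPKM in Y483F (limma adjusted p 0.390). Over all genes tested these shares were 7.58% above and 7.37% below, so 1 of 8 each way is near the background. In the libraries numbered 4 and 5 alone edgeR called 3 of the 8 higher (CDKN1A, CDKN2A and PMAIP1) and MYC lower, against 7.07% higher and 7.98% lower over all genes.

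**Figure D4:**
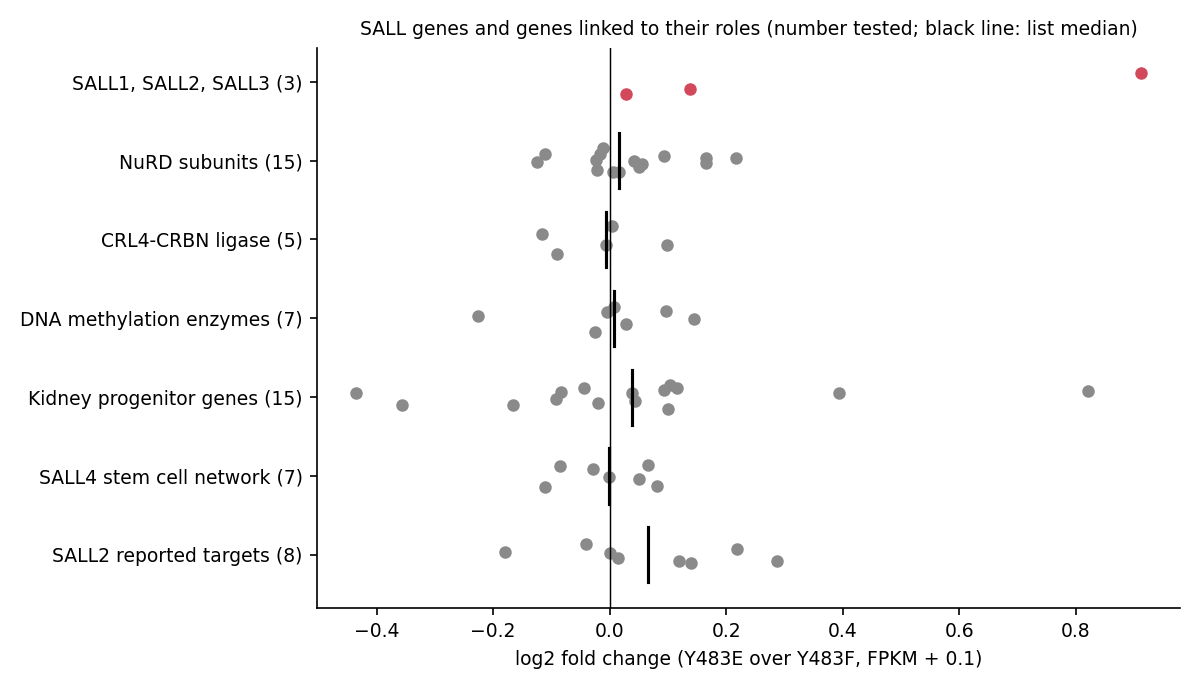
Log2 fold change of Y483E over Y483F (x axis, FPKM + 0.1) for SALL1, SALL2 and SALL3 in the top row and for the tested genes of each list linked to SALL roles below, 1 point per gene, with the list median as a black line. List medians lie between -0.01 and 0.07, SALL1 and SALL2 at 0.03 and 0.14, and SALL3 at 0.91.

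Patterns across the 6 libraries were compared by Pearson correlation of log2(FPKM + 0.1), as a description over libraries of 2 lines. For SALL3, 267 of the 10929 protein-coding genes averaging 1 FPKM or more had a correlation of at least 0.9, as any gene with a like split between the lines would. The closest 5 were ZNF672 at 0.998, ARHGAP44 at 0.994, DDX19B at 0.993, ELF4 at 0.993 and CDKN2A at 0.988, on chromosomes 1, 17, 16, X and 9. Their differences were smaller than that of SALL3, with log2 fold changes of 0.15 to 0.39, the largest at DDX19B (2.66 ± 0.0781 FPKM in Y483E and 2.00 ± 0.0587 FPKM in Y483F). For SALL2 the closest were FAM189B at 0.996 and CTTNBP2NL at 0.993, and for SALL1 TMEM68 at 0.984 and TCF7L1 at 0.982, and the levels of these 4 genes overlapped between the lines, as those of SALL1 and SALL2 did.

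**Figure D5:**
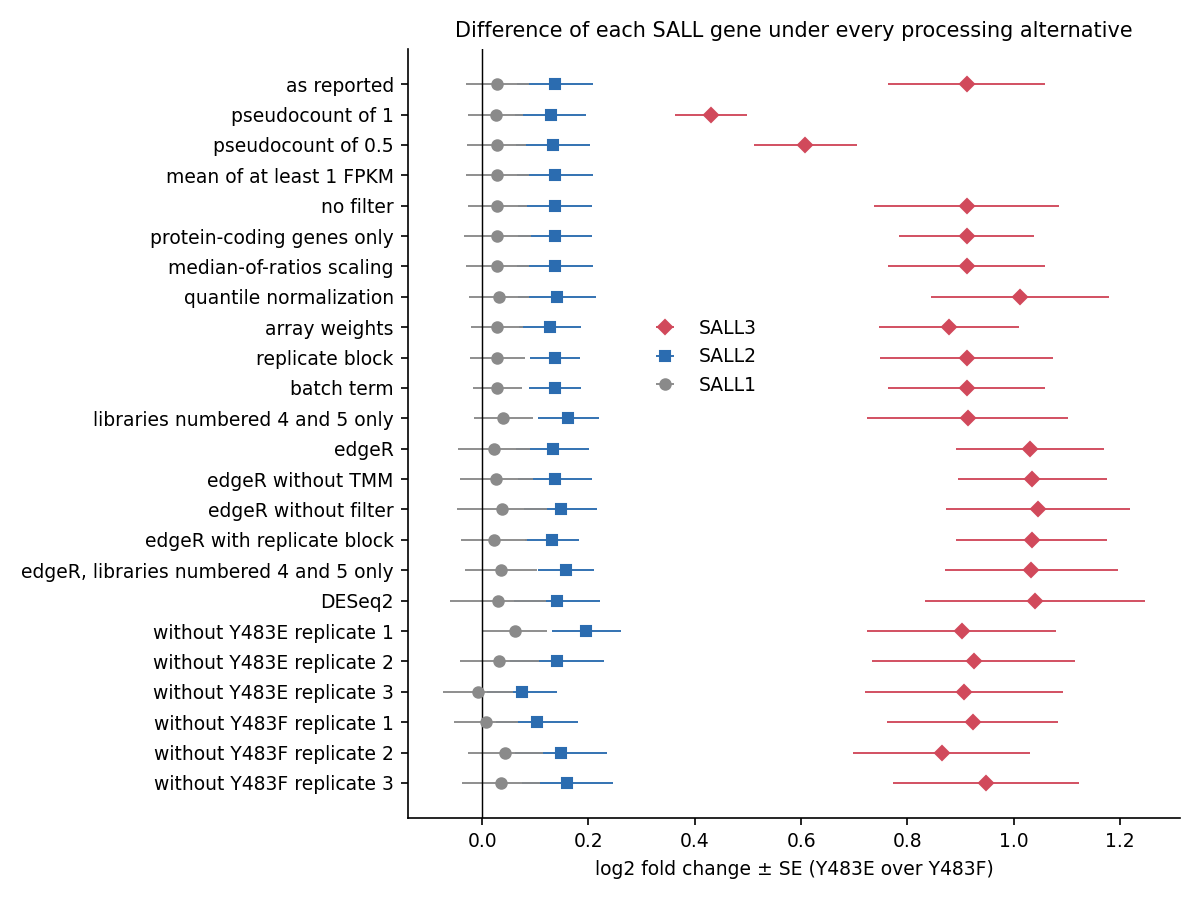
Log2 fold change ± SE of Y483E over Y483F (x axis) for SALL3, SALL2 and SALL1 under the reported settings and 23 alternatives (rows). SALL3 stays between 0.43 and 1.05, SALL2 between 0.07 and 0.20, and SALL1 between -0.0071 and 0.06. SALL3 has no value with the filter at a mean of 1 FPKM.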

How the data were processed

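RNA was selected with poly-T beads, per the labels' protocols, and the submitters' processing notes name featureCounts 1.5.0-p3, HISAT2 2.0.5, DESeq, DESeq2 and StringTie 1.3.3b without their roles. No label names a genome build; 58690 of 58735 gene spans in the authors' table are those of GENCODE 29. The authors deposited FPKM for every gene. For 1652 genes they also deposited read counts, the signal made by dividing counts by size factors, log2 fold changes and p-values.

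FPKM times gene length and library total gave whole reads, within 0.01 of a read, for 100% of values above 0. Library totals were the median over the listed genes, and the recovered reads equalled the listed counts for all 1652. Genes averaging 0.1 FPKM or more were tested in limma 3.58.1 (trend, two-sided, R 4.3.3) on log2(FPKM + 0.1), with Benjamini-Hochberg adjustment over all 20502 genes. This filter replaced one at 1 FPKM that left SALL3 out. edgeR 4.0.16 and DESeq2 1.42.0 on the recovered reads were alternatives. Standard errors for edgeR are the log2 fold change divided by the root of F. The scripts were tested on simulated data. Members, gene lists and tests were chosen with earlier results of these data known. Named are the members, up to 4 called or the 2 most abundant genes of each list, the nearest expressed neighbour on each side, overlapping genes, pseudogenes and the genes most alike in pattern. Other genes named, such as those whose groups do not overlap, were chosen after their values were seen.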

Additional observations from a re-analysis of the deposited data

How the results depend on the processing

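SALL3 kept its direction in all 22 alternatives that gave it a value. Its log2 fold change moved to 0.43 with a pseudocount of 1 and to 0.61 with one of 0.5, because a larger pseudocount shrinks low values, and to 1.01 with quantile normalization. On recovered reads it was 1.03 in edgeR, 1.04 without TMM, 1.05 without the filter, 1.03 with the replicate block, 1.03 in the libraries numbered 4 and 5, and 1.04 in DESeq2. With 1 library left out it lay between 0.86 and 0.95. SALL2 lay between 0.07 and 0.20 and SALL1 between -0.0071 and 0.061 (lowest and highest without Y483E replicate 3 and 1) with no call in any of 23 alternatives.

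The number of genes called, 0 in the reported fit, was 1 with array weights, 15 in the libraries numbered 4 and 5, 7 in edgeR, 14 without TMM, 671 without the edgeR filter, 6 in edgeR with the replicate block, 2454 in edgeR on the libraries numbered 4 and 5, and 126 in DESeq2. With 1 library left out it was 0 to 1. The cause of these shifts was not tested. Same-numbered libraries deviated together by correlations of 0.018, 0.046 and -0.015. Y483E replicates 1 and 2 correlated best with the Y483F library of their own number, and Y483E replicate 3 with Y483F replicate 1 (0.043). The numbers are not known to pair samples and were not taken as pairs. With the replicate block limma still called 0 genes and gave SALL2 0.14 (adjusted p 0.448). Of 230 list and neighbour medians recomputed, 217 moved by less than the spread between replicates and 17 had the opposite sign, none of them a median of neighbours.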

Other observations

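The SALL genes belong to the 630 genes of the zf-C2H2 factor family in the authors' table. Of the 535 other tested members of this family 339 were lower and 196 higher in Y483E, at a median log2 fold change of -0.05, against -0.0049 over all 20502 genes tested. Every Y483E library lay below every Y483F library for 74 of them and above for 34, against 7.37% and 7.58% of all genes tested. In limma 0 of the 535 passed the threshold and 56 had an unadjusted p under 0.05, while edgeR on all 6 libraries called 0 of 528. With edgeR on the libraries numbered 4 and 5, 54 of 530 were called lower and 12 higher, against 7.98% lower and 7.07% higher over all genes. SALL1, SALL2 and SALL3 had positive fold changes, the less common side of their family. The limma intervals of SALL1 and SALL2 spanned no change, however, and SALL3 was selected on its rise. The medians of the family differed between libraries of 1 line as well, at -0.01 in Y483F replicate 1 and 0.04 and 0.03 in Y483F replicates 2 and 3, measured from each gene's mean over the 6 libraries.

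The family's lowest value was at ZNF90, at 0.123, 0.180 and 0.0757 FPKM in Y483E and 0.244, 0.299 and 0.362 FPKM in Y483F (log2 fold change -0.85 ± 0.31, SE). SNAI1, a repressor of epithelial genes that lies within 2 Mb of SALL4, was at 1.43, 1.98 and 1.42 FPKM in Y483E and 1.97, 2.93 and 3.88 FPKM in Y483F (-0.79 ± 0.25), and its groups overlapped.

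Around SALL2 the lowest values were at neighbours of each other, CEBPE at 124, 117 and 98.7 FPKM in Y483E and 137, 190 and 173 FPKM in Y483F (log2 fold change -0.55 ± 0.14) and LMLN2 at 0.849, 0.478 and 0.622 FPKM in Y483E and 1.14, 1.74 and 1.55 FPKM in Y483F (-1.08 ± 0.24). Both lay without overlap between the groups, with limma adjusted p-values of 0.352 and 0.345. In edgeR on the libraries numbered 4 and 5 both passed, at adjusted p-values of 5.4e-06 and 0.00021. That fit called 7.98% of all genes lower. It leaves out replicate 1 of each line, which for both genes lay nearest to the other line. All these genes were named after their values were seen.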
